A study of Homo sapiens with 2 samples.

Results

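The 10 genes described here are FLT3 and 9 genes whose transcription follows the signal that FLT3 sends through STAT5 and ERK, taken by gene name from a table of 50868 genes. All 10 had at least 10 reads over both libraries. The cells were MOLM-13, a human acute myeloid leukemia (AML) line, grown in RPMI medium with 10% fetal bovine serum. One library is labelled as control cells with the empty vector (Vector) and 1 as cells made to over-express UNC5B (OE-UNC5B), a netrin-1 receptor, although no read of UNC5B was counted in either. According to the methods, UNC5B was delivered by lentivirus under a CMV promoter with FLAG and mCherry tags, virus was packaged in HEK-293T cells and infected cells were screened with puromycin. Whether a single clone was grown out is not given in the sources used here. The paper ran the sequencing to check whether UNC5B acts on genes related to adhesion and proliferation.

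FLT3 is a receptor tyrosine kinase of blood progenitors. Its ligand FLT3LG pairs the receptors, which then signal through STAT5 and through RAS, RAF, MEK and ERK. MOLM-13 is known to carry an internal tandem duplication in FLT3, which keeps the kinase active without ligand and makes STAT5 a main outlet. The transcripts that STAT5 and ERK induce include inhibitors of the same signal, so their levels are used as a readout of pathway activity. Gene-level reads cannot separate the duplicated FLT3 allele from the normal one.

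Reads counted to genes numbered 13715566 for Vector and 15637137 for OE-UNC5B, of which 6.78% and 5.66% were mitochondrial. UNC5B itself had 0 reads in each, which goes against the label OE-UNC5B. Whether that library came from over-expressing cells cannot be told from the counts, and every direction given here rests on the name OE-UNC5B that one of them carries. Of 8 myeloid markers all were detected, 4 with log2 fold changes above 0 and 4 below (median -0.0044), with CD33 at 1775 and 2299 reads, while MPO and LYZ were lower by at least 2-fold in the OE-UNC5B-labelled library (log2 fold changes of -1.35 and -1.36), as were 4.79% of all tested genes, and PTPRC was at 0.73. The 5 packaging cell markers held 11 and 2 reads in all, with KRT8, EPCAM and GATA3 at 0 in both. Of 6 endothelial markers CDH5, KDR, TEK and CLDN5 were at 0 and VWF had 1 and 2 reads, and PECAM1, which myeloid cells also express, had 1626 and 1471. The part of the lower MPO and LYZ values in the results below was not tested. There was 1 library in each group, so no difference has a replicate check, no p-value is given, and every interval is a 95% interval for counting error alone that leaves out variation between cultures.

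The promoters of CISH and PIM1 are shown because CISH holds the sequence that STAT5 binds and PIM1 had the highest fold change. Each is the stretch from 250 to 91 bases before the RefSeq start of the gene (GRCh38.p14), at chr3:50611865-50612024 on the minus strand for CISH and chr6:37169902-37170061 on the plus strand for PIM1. Capitals mark the STAT5 motif TTCNNNGAA in CISH and the GC box GGGCGG in PIM1.
CISH: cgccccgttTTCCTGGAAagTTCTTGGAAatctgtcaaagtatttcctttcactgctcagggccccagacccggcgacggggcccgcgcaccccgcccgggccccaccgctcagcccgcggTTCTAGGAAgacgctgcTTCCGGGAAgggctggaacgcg
PIM1: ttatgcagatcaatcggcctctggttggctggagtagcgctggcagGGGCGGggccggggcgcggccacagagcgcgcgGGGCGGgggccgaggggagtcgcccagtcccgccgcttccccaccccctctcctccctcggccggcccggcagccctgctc

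The CISH stretch held 4 STAT5 motifs in 2 pairs, beginning 241, 230, 129 and 112 bases before the start. Promoter windows from 250 bases before to 50 after the start were searched on both strands for 8 of the 10 genes, and SOCS2 and ETV5 were not matched. CISH alone of the 8 held TTCNNNGAA, which was found in 7.66% of 35116 windows of that length, and 7 of these windows (0.0199%) held 4 or more. PIM1 held 0 STAT5 motifs and 4 GC boxes, 2 of them in the stretch shown, and GGGCGG was found in 44.95% of windows, with 4 or more in 9.06%. Of the 8 genes searched, 6 held a GC box. The ETS core CCGGAA, bound by factors such as ETV5, was found in CISH, where it overlaps the last STAT5 motif, and in SPRY2, against 17.25% of windows. The absence of a motif says only that these letters are not in this window.

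PIM1 was the single gene of the 10 that was higher by at least 2-fold in the OE-UNC5B-labelled library, and 0 of the 10 were lower by 2-fold. Among the 15384 genes with at least 10 reads, 5.15% were higher and 4.79% lower by 2-fold. At 1.5-fold, PIM1 and ETV5 were higher and 0 were lower, against 12.9% and 12.5% of all tested genes. The median log2 fold change of the 10 genes was 0.41, beside -0.0063 for all tested genes. Of the 10, 7 were above 0 and 3 below, while 49.4% of all tested genes were above 0. The counting interval lay above equal for those 7 genes and below equal for the other three, against 25.2% and 26.2% of all tested genes. The 10 genes had a median of 1039.5 reads over both libraries and all tested genes 593, and more reads make a narrower interval.

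**Figure D1:**
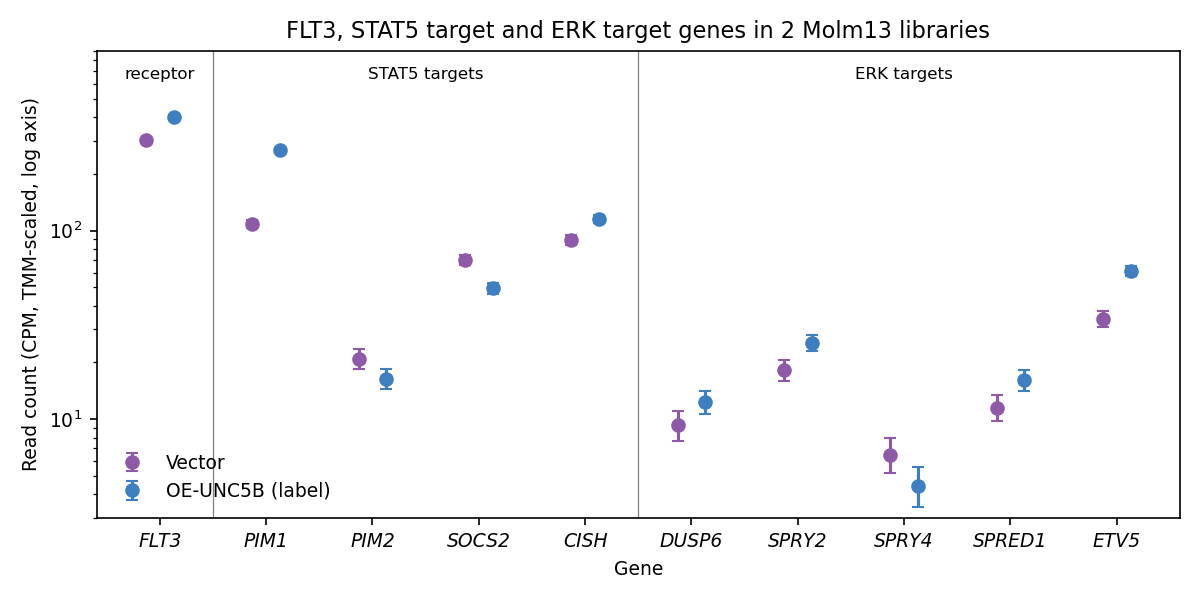
Level of each gene in CPM (TMM-scaled counts, log axis) in the Vector library and the OE-UNC5B-labelled library, with bars for the 95% Poisson interval of the reads. FLT3 is the highest in both libraries, PIM1 moves from 108.7 to 267.0 CPM, and PIM2, SOCS2 and SPRY4 are lower in the OE-UNC5B-labelled library.

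The receptor was the most abundant transcript of the set. FLT3 lies on chromosome 13 from 28003274 to 28100592 on the minus strand of GRCh38, and its main transcript has 24 exons. It had 4067 reads in Vector and 6395 in the OE-UNC5B-labelled library. After scaling with TMM, which corrects for library size and composition, these are 301.4 CPM (reads scaled to the same library total, interval 292.2 to 310.8) and 402.3 CPM (392.5 to 412.3). The intervals do not overlap, and the change was 1.33-fold, or 0.42 on the log2 scale (0.36 to 0.47), inside the 2-fold limit. Of all tested genes, 19.7% had a log2 fold change at least as high. The ligand FLT3LG was low, with 45 and 76 reads and a log2 fold change of 0.51 (-0.03 to 1.08).

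Of the transcription factors known to act on the FLT3 gene in this leukemia, 0 of 7 were higher or lower by 2-fold, a count that says little since 90.1% of all tested genes were within 2-fold. MEIS1 had 247 reads in Vector and 542 in the OE-UNC5B-labelled library, a log2 fold change of 0.90 (0.68 to 1.12). PBX3 and HOXA9, its partners on DNA, had log2 fold changes of 0.72 and 0.47. The myeloid factors CEBPA and SPI1 were at -0.16 and -0.23, and MYB and RUNX1 at 0.03 and 0.04.

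Among the 4 STAT5 targets, PIM1 and CISH were higher and PIM2 and SOCS2 lower, which left a median log2 fold change of 0.0093. PIM1, a serine/threonine kinase that promotes survival and growth, lies on chromosome 6 from 37170203 to 37175426 on the plus strand. It had 1466 reads in Vector (108.7 CPM, 103.2 to 114.4) and 4244 in the OE-UNC5B-labelled library (267.0 CPM, 259.0 to 275.1). The change was 2.46-fold (2.32 to 2.61), and 3.03% of tested genes had a log2 fold change at least as high as its 1.297. PIM2 encodes a kinase of the same family and lies on chromosome X from 48913182 to 48919024 on the minus strand. It had 282 reads and 260 reads, 20.9 CPM against 16.4 CPM, a log2 fold change of -0.35 (-0.60 to -0.11), which was -0.22 with a GC content and length trend subtracted.

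CISH and SOCS2 encode SH2 proteins that STAT5 induces and that dampen cytokine receptors in return. CISH, on chromosome 3 from 50606490 to 50611831 on the minus strand, had 1206 reads in Vector and 1839 in the OE-UNC5B-labelled library. These are 89.4 and 115.7 CPM with intervals that do not overlap, a log2 fold change of 0.37 (0.27 to 0.48). SOCS2, on chromosome 12 from 93569814 to 93583487 on the plus strand, had 945 reads and 787 reads. It went from 70.0 CPM to 49.5 CPM, a log2 fold change of -0.50 (-0.64 to -0.36), the second lowest of the 10 genes.

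Summed reads over the STAT5 targets rested on PIM1. Their 4 genes summed to 3899 reads in Vector against 7130 in the OE-UNC5B-labelled library, 1.55-fold. Without PIM1 the other three held 2433 and 2886 reads, 1.01-fold, with an interval of the log2 fold change from -0.07 to 0.09.

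Of the 5 ERK targets, 4 were higher and SPRY4 was lower, all by less than 2-fold, while 49.4% of all tested genes were above 0. Their median log2 fold change was 0.49. ETV5, an ETS transcription factor, lies on chromosome 3 from 186046308 to 186110318 on the minus strand. It had 459 reads (34.0 CPM, 31.0 to 37.3) in Vector and 970 (61.0 CPM, 57.2 to 65.0) in the OE-UNC5B-labelled library. Its log2 fold change of 0.84 (0.68 to 1.01) was the second highest of the set, and its interval reaches just past 2-fold.

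DUSP6 and SPRED1 are feedback inhibitors of the ERK cascade with few reads here. DUSP6, the phosphatase that removes the activating phosphates of ERK, lies on chromosome 12 from 89347232 to 89353271 on the minus strand and had 125 and 196 reads. It was at 9.26 and 12.3 CPM, with Poisson intervals of 7.71 to 11.0 and 10.7 to 14.2 that overlap. SPRED1, which holds RAS in check with neurofibromin, lies on chromosome 15 from 38252326 to 38357249 on the plus strand and had 155 and 256 reads. Their log2 fold changes were 0.41 (0.08 to 0.75) and 0.49 (0.19 to 0.78), that of DUSP6 being 0.26 with FPKM and 1 added.

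The Sprouty proteins, which also restrain RAS signalling, went in opposite directions. SPRY2, on chromosome 13 from 80335976 to 80340951 on the minus strand, had 245 reads in Vector and 405 in the OE-UNC5B-labelled library, a log2 fold change of 0.49 (0.26 to 0.72). SPRY4, on chromosome 5 from 142310427 to 142326455 on the minus strand, had 87 reads and 70 reads, a log2 fold change of -0.55 (-1.03 to -0.08). SPRY4 was the lowest of the 10 genes in both libraries, and its levels of 6.45 and 4.40 CPM have overlapping intervals (5.16 to 7.95 and 3.43 to 5.56). Summed over the 5 ERK targets, reads went from 1071 to 1897 (1.503-fold), and without ETV5 from 612 to 927 (1.29-fold).

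**Figure D2:**
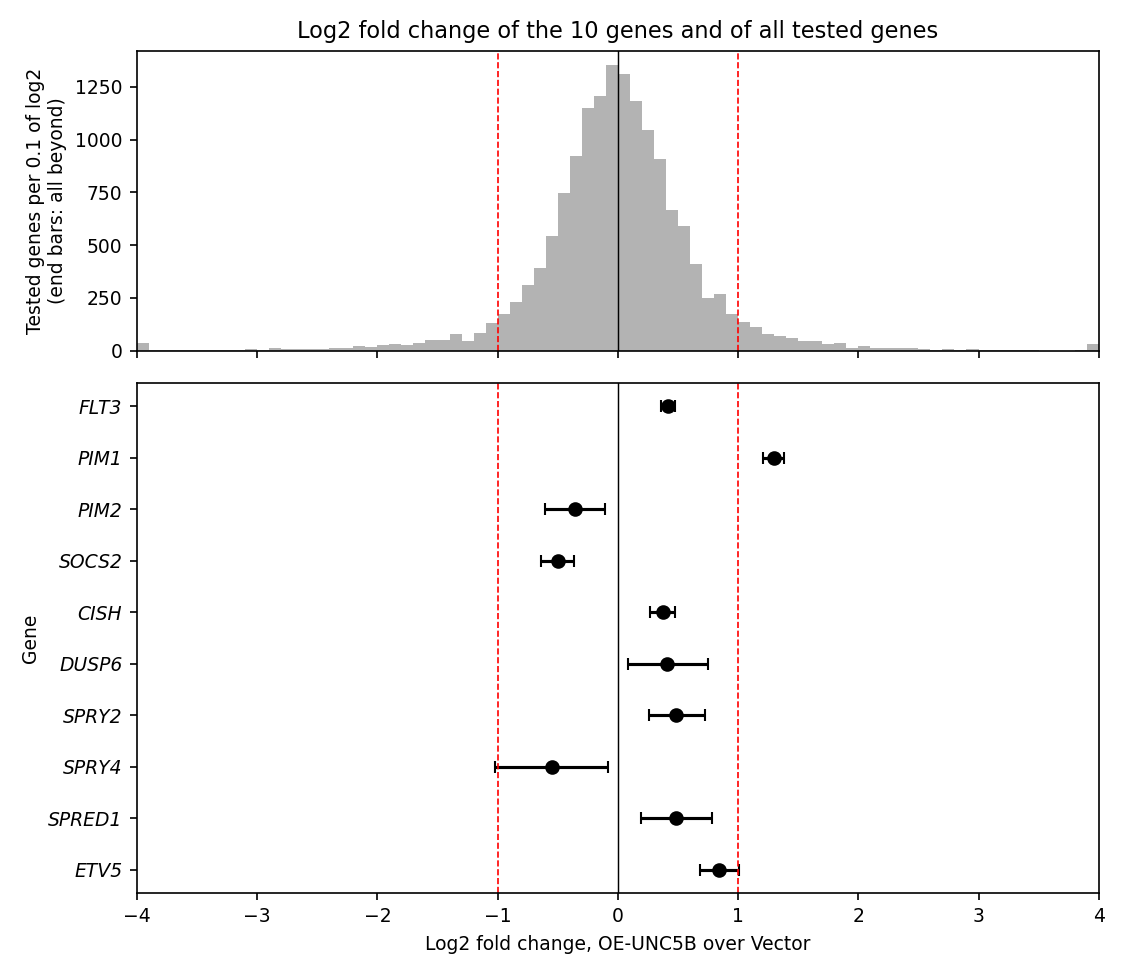
Top, number of tested genes per 0.1 of log2 fold change (OE-UNC5B-labelled library over Vector), with all genes beyond 4 in either direction in the end bars. Bottom, the log2 fold change of each of the 10 genes with the 95% interval from the reads; dashed lines mark 2-fold, which PIM1 alone passes, at 1.297.

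Related genes within a library were compared as read ratios, in which the scaling between libraries cancels. The 12 pairs were chosen after values were seen and carry no test. PIM1 had 5.20 reads for each PIM2 read in Vector and 16.3 in the OE-UNC5B-labelled library, a 3.14-fold shift (2.62 to 3.77). Against PIM3, the third kinase of the family, the shift was 3.58-fold (3.18 to 4.02). The balance of CISH to SOCS2 shifted 1.83-fold (1.62 to 2.07), that of SPRY2 to SPRY4 2.05-fold (1.42 to 2.97) and that of ETV5 to its relative ETV4 2.06-fold (1.65 to 2.58).

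In 3 of the 12 pairs the interval of the shift included 1, and no such share was computed for other pairs. For single genes the interval lay above equal in 25.2% and below in 26.2% of all tested genes. SPRED1 to SPRED2 shifted 1.10-fold (0.865 to 1.39) and DUSP6 to DUSP7 0.920-fold (0.723 to 1.17). CISH to FLT3 was at 0.297 and 0.288 reads, a shift of 0.970-fold (0.892 to 1.05). The intervals of the pairs not yet given lay above 1, a direction that depends on which gene is named first. SOCS2 and SOCS3 were each lower in the OE-UNC5B-labelled library, at -0.50 and -1.49. PIM1 to FLT3 shifted 1.84-fold (1.71 to 1.98), SOCS2 to SOCS3 1.99-fold (1.48 to 2.71), SPRY2 to SPRY1 1.90-fold (1.40 to 2.60) and STAT5B to STAT5A 1.32-fold (1.13 to 1.53).

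**Figure D3:**
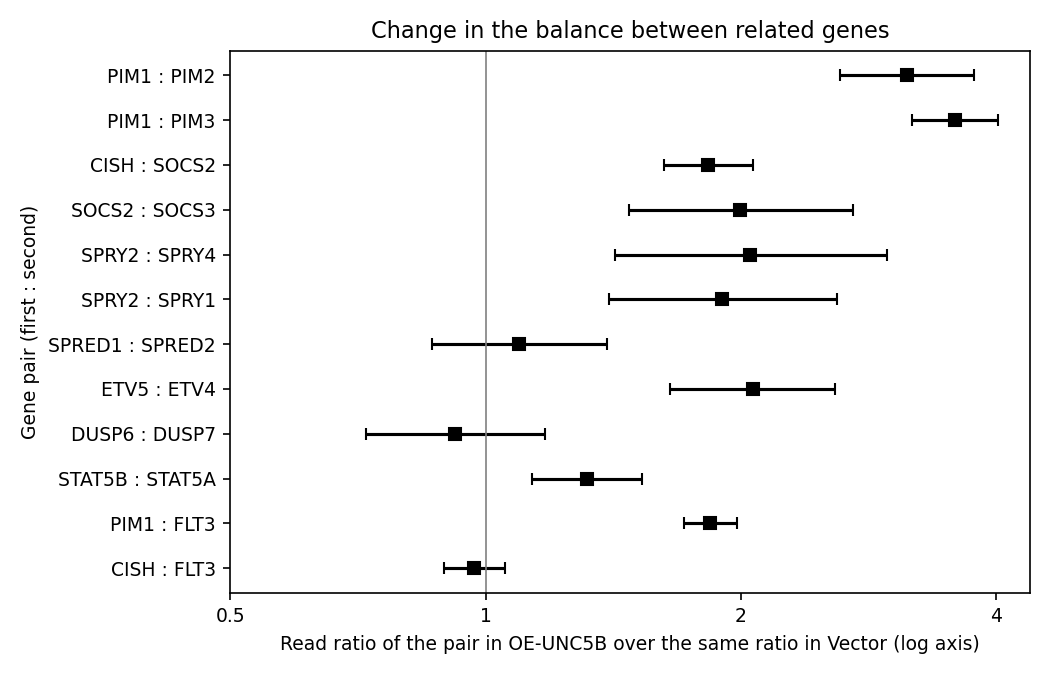
For 12 pairs of genes, the read ratio of the first to the second gene in the OE-UNC5B-labelled library divided by the same ratio in Vector (log axis), with 95% exact intervals for counting error. PIM1 against PIM3 shifted most, at 3.58, and the intervals of SPRED1 to SPRED2, DUSP6 to DUSP7 and CISH to FLT3 include 1.

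Levels between genes were compared with the deposited FPKM, which divide the reads of a gene by a length assigned to it and by the library size. In Vector the order was FLT3 (59.2 FPKM), PIM1 (28.2), CISH (9.74), PIM2 (5.59), ETV5 (4.20), SOCS2 (3.83), SPRY2 (3.78), SPRED1 (1.299), DUSP6 (1.12) and SPRY4 (0.706). The neighbours ETV5 and SOCS2, SOCS2 and SPRY2, and SPRED1 and DUSP6 have overlapping counting intervals there. In the OE-UNC5B-labelled library, FLT3 was at 81.6 and PIM1 at 71.6 FPKM, CISH at 13.02, ETV5 at 7.79 and SPRY2 at 5.48. PIM2 followed at 4.52 FPKM with an interval that overlaps that of SPRY2, and SOCS2 at 2.80.

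This order depends on the length that the deposited FPKM use. The length they imply for SOCS2 is 17997 nt, 7.54 times the 2386 nt of its main transcript, and for CISH 9031 nt, 4.47 times. For FLT3 it is 5009 nt, 1.31 times. For SOCS2, CISH and DUSP6 the implied length exceeds the whole span of the gene, introns included, so it cannot be that of a single transcript. Per kilobase of the main transcript, a choice made after the values were seen, SOCS2 stood at 28.9 and 21.1 CPM per kilobase, rank 4 of the 10 genes in both libraries. CISH was then above PIM1 in Vector, at 43.55 against 39.5, and below it in the OE-UNC5B-labelled library, at 58.25 against 100.4. The main fold changes, made from counts, do not depend on this length. Those from FPKM with a number added or with the length trend subtracted do.

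Several of these genes share bases with others, and the sources do not state whether the counting used strand. SOCS2-AS1, antisense to SOCS2 with 277 shared exon bases, had 66 reads in Vector and 146 in the OE-UNC5B-labelled library, a log2 fold change of 0.90 (0.48 to 1.35) against -0.50 for SOCS2. Reads in the shared bases, 4.28% of the SOCS2 exons, cannot be told apart without strand. MAPKAPK3 shares 218 exon bases with CISH from the other strand and had 1531 and 1676 reads. DGKG shares 164 exon bases with ETV5 on the same strand and had 227 and 123 reads, a log2 fold change of -1.12. AC024909.1, antisense to DUSP6, shares 1105 exon bases, 28.6% of the DUSP6 exons and the largest of these overlaps, and had 5 and 12 reads beside 125 and 196 for DUSP6. SPRY4-IT1, inside SPRY4, had 5 and 0, and SPRY4-AS1 and ETV5-AS1 had 0 in both.

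The wider STAT5 targets were split as well. Of 12 genes, 2 were higher and 1 lower by 2-fold, beside 5.15% and 4.79% of all tested genes. Their median log2 fold change was 0.03, which turned to -0.05 with FPKM and -0.03 with at least 50 reads. CCND2, cyclin D2, had 479 reads in Vector and 1174 in the OE-UNC5B-labelled library, a log2 fold change of 1.06 (0.90 to 1.21). IL2RA had 5 and 18 reads, with an interval of the log2 fold change from 0.13 to 3.40. SOCS3, a STAT-induced inhibitor of cytokine receptors, had 170 and 71 reads, a log2 fold change of -1.49 (-1.92 to -1.09).

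A further 17 ERK outputs were listed. Of the 14 with at least 10 reads, 2 were higher and 0 lower by 2-fold (5.15% and 4.79% of all tested genes), 6 were above 0 and 8 below (49.4% of all tested genes were above 0), and the median log2 fold change was -0.16, which moved to -0.03 with a GC content and length trend subtracted. SPRY3 had 35 and 98 reads, a log2 fold change of 1.24 (0.68 to 1.85). ETV1 had 3 and 11 reads, a ratio of 2.79 whose interval runs from -0.28 to 4.12 on the log2 scale and includes equal. DUSP9 and EPHA4 had 0 reads in both libraries and EPHA2 had 3 and 0.

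Most immediate early genes, which ERK and other signals switch on within minutes, had values below equal. Of 13, 4 were lower and 0 higher by 2-fold, where 4.79% of all tested genes were lower, with a median log2 fold change of -0.58. The zinc finger factors EGR2 and EGR3 had 62 and 168 reads in Vector and 15 and 36 in the OE-UNC5B-labelled library. FOSB, a partner of JUN, had 69 and 16 reads, and IER2 had 1750 and 302. EGR1 and FOS had log2 fold changes of -0.45 (-0.56 to -0.34) and -0.83 (-0.92 to -0.75). Of the 13 genes 2 were above 0 and 11 below, beside 4 of the 5 ERK targets above 0 and 49.4% of all tested genes, and the difference between the lists was not tested.

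Among the components that carry or restrain the signal, more genes had values above 0 than below. The list mixes genes that transmit with inhibitors such as CBL, CBLB, NF1, RASA1, PTPN6 and SH2B3, so its counts and median do not measure transmission. Of 36 genes, 28 had a log2 fold change above 0, as had 49.4% of all tested genes, and the median was 0.27. By 2-fold, 1 was higher and 0 were lower, and 35 were within 2-fold, beside 90.1% of all tested genes. KSR1 is a scaffold for RAF, MEK and ERK, with 211 reads in Vector and 620 in the OE-UNC5B-labelled library, a log2 fold change of 1.32 (1.09 to 1.55). Nearest below the limit, and named after their values were seen, were the adaptor GAB2 (1428 and 3349 reads, 0.99) and the RAS inhibitor RASA1 (863 and 2019 reads, 0.99). The adaptor GRB2 followed at 0.94.

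Kinases late in the cascade had values within 2-fold. MAPK3, which encodes the kinase ERK1, had 210 and 230 reads, a log2 fold change of -0.11 (-0.38 to 0.17). The kinase genes MAP2K1 and MAP2K2, which encode MEK, were at -0.05 and -0.24. STAT5A had 468 and 590 reads, a log2 fold change of 0.10 (-0.08 to 0.28), and STAT5B had 925 and 1535, at 0.49 (0.38 to 0.61). Over all 36 signal components the median length in the deposited scaling was 8387 nt, beside 6735 nt for all tested genes, and the median was 2368 reads, beside 593.

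**Figure D4:**
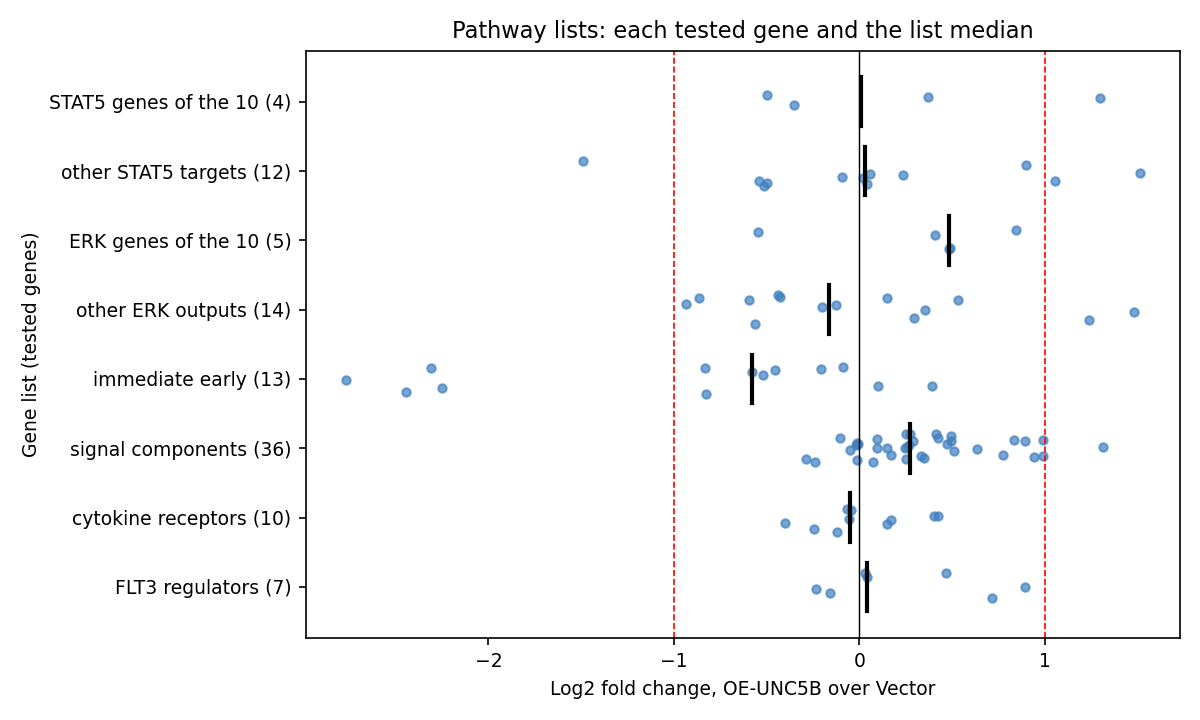
Log2 fold change (OE-UNC5B-labelled library over Vector) of each tested gene in 8 lists, with the number of tested genes in brackets, a black bar at each list's median and dashed lines at 2-fold. The medians run from -0.58 for the immediate early genes to 0.49 for the ERK targets of the set, and points are shifted up or down at random for visibility.

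Other receptors that feed STAT5 or ERK in myeloid cells were counted in the same way. Of 12, 10 had at least 10 reads, 0 of these were higher or lower by 2-fold, as 90.1% of all tested genes were within 2-fold, and the median log2 fold change was -0.05, or -0.0015 with library totals. IL3RA and CSF2RA, the alpha chains for IL-3 and GM-CSF, had values of 0.40 and 0.42 with intervals above equal, and their shared chain CSF2RB had -0.12. EPOR and IFNGR2, receptor chains for erythropoietin and interferon gamma, had -0.40 (-0.71 to -0.10) and -0.25 (-0.41 to -0.08). KIT, the stem cell factor receptor, had 2 and 1 reads.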

How the data were processed

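RNA-seq of MOLM-13 cells was analysed, with 1 library per group, grouped by the genotype labels. The methods name a VAHTS Universal library kit and the GRCh38 genome. The submitters' processing notes name bcl2fastq 2.19, HISAT2 2.0.4 and StringTie 1.3.0 without roles. Neither the gene annotation's release nor a strand setting is given in the sources used here. Each gene has 2 kinds of deposited value, a raw count and an FPKM made by the authors. Between libraries, counts divided by FPKM differed by a factor of 1.1395 to 1.1404, that of the counted reads.

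Counts were scaled with TMM in edgeR 4.0.16 (R 4.3.3), with factors of 0.984 (Vector) and 1.02. A gene counted as tested from 10 reads upwards, summed over the pair of libraries, 0.5 reads were added for log2 fold changes, and a gene was called at 2-fold. With 1 library per group edgeR's quasi-likelihood test could not be fitted. Intervals are 95% exact binomial (Clopper-Pearson), Poisson or conditional odds ratio intervals. The procedure was run on simulated reads with counting error alone, which cannot test it against variation between cultures. Gene models came from GENCODE 44 and promoters from RefSeq (GRCh38.p14). The genes, lists and the rule for named genes (the 10 genes, FLT3LG, STAT5A, STAT5B, MAPK3, FLT3 regulators, list genes past 2-fold and overlapping genes) were chosen with earlier results of these data known. Some genes that the rule or the lists hold are not reported here. List genes named within 2-fold were picked after their values were seen. The alternatives scaled by library totals, by size factors from DESeq2 1.42.0 or by upper quartile, or used FPKM (0.1 or 1 added, at least 1 in either library), 2 reads added, no filter, 50 reads, folds of 1.5 and 4, and a GC content and length trend subtracted.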

Additional observations from a re-analysis of the deposited data

How the results depend on the processing

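No paired analysis was possible because each group has a single library, so leaving out a replicate was not possible either. The 10 genes were recomputed under 9 alternatives of scaling, values, filter and trend, of which the correction for GC content and gene length was chosen after seeing the data. SPRY4 had no value with FPKM because it is under 1 in both libraries. In these 88 values the sign changed 0 times, which for most settings says little. No filter and 50 reads leave each gene's value as it was, and another scaling shifts all genes by the same amount. PIM1 ran from 1.29 to 1.44 on the log2 scale and was past 2-fold each time, and ETV5 from 0.76 to 0.89. SOCS2 ran from -0.67 (trend subtracted) to -0.35 (FPKM with 1 added). These values of SOCS2, and the 1.44 of PIM1 with the trend subtracted, lie outside the main counting intervals of the genes. PIM2 (-0.36 to -0.22) and DUSP6 (0.26 to 0.46) moved by over 1.5 times, PIM2 with the trend subtracted and DUSP6 with FPKM and 1 added. By construction, a limit of 1.5-fold gave 2 higher genes of the 10 (PIM1 and ETV5) and one of 4-fold gave 0, and 0 were lower at either. The medians of the 10 genes and of the ERK output, signal component, immediate early and receptor lists kept their sign under all 9, though 2 of them moved by over 1.5 times. The ERK output median of -0.16 was -0.07 and -0.04 with FPKM (0.1 and 1 added) and -0.03 with the trend subtracted, and the receptor median of -0.05 was -0.0015 with library totals and -0.0073 and -0.0070 with FPKM. That of the other STAT5 targets, 0.03, was -0.05 with FPKM and either number added, -0.03 with at least 50 reads and 0.13 with the trend subtracted, and that of the signal components 0.21 with the trend subtracted. Depth limits the low genes: at SPRY4 the interval from the reads spans -1.03 to -0.08 on the log2 scale.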
